A study of Mus musculus with 24 samples.

Results

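The connexin genes of the epidermis Gjb2, Gjb6, Gjb5 and Gja1 were described in skin of mouse embryos that differed in desmoglein 1 (Dsg1), a desmosomal cadherin of the upper epidermis. They were 4 of 54087 gene symbols in the count table and 4 of 16 connexin genes reported here, and all 4 passed the count filter. They were chosen by measured values, namely the higher Gjb2 count in KO skin, so every comparison with KO below is a description without a test, and tests are given for HET against WT and for genes outside the 4.

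RNA was measured by RNA-Seq of whole dorsal skin at embryonic stage E18.5, on a C57BL/6 background. WT embryos (Dsg1+/+) had the intact cluster of tandem Dsg1 genes, HET embryos (Dsg1+/-) had 1 intact copy, and KO embryos (Dsg1-/-) had none. The cluster was deleted with CRISPR/Cas9 in every cell of the animal and the colony came from 1 founder line, so an effect of that line cannot be told apart from the deletion. Both sexes were used, and the labels give no treatment for any group. The 24 libraries came to 5 summed columns per genotype, called replicates here.

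Connexins are membrane proteins that assemble in rings into a hemichannel, and hemichannels of neighbouring cells dock to form a gap junction channel through which ions, second messengers and small metabolites pass. Keratinocytes make several connexins whose levels change between the basal layer and the differentiated layers above it. Gjb2 (connexin Cx26) is low in resting epidermis between hair follicles and is known to rise in hyperproliferative skin such as wound edges and psoriatic plaques. Mutations of the human gene cause hearing loss, with or without thickened skin.

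Gjb2 and Gjb6 lie next to each other on chromosome 14, in the order Gja3, Gjb2, Gjb6, Cryl1, Ift88 among protein-coding genes of RefSeq GRCm38.p6. The 250 bases before their start sites are shown because these neighbours varied together across columns but differed in size of change. Sequences are from RefSeq GRCm38.p6 and read 5′ to 3′ on the minus strand, the coding strand of both genes. Capitals mark matches to the motifs named after them. Gjb2 is at chr14:57104703-57104952 and Gjb6 at chr14:57133612-57133861.
Gjb2: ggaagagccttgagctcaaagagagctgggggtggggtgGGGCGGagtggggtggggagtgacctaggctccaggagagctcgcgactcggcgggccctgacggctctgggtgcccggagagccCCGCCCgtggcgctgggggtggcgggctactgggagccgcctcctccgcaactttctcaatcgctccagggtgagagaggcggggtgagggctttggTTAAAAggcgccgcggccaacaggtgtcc
Gjb6: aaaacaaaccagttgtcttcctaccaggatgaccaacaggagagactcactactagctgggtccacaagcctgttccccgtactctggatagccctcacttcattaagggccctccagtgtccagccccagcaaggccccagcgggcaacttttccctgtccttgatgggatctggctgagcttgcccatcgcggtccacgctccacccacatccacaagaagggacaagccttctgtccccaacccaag

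The Gjb2 window was GC rich (69.2% G or C, 18 CpG dinucleotides), and the Gjb6 window less so (56.8%, 5 CpG dinucleotides). The motifs were searched on either strand. AP-1 was read as TGANTCA and the GC box as GGGCGG. The TATA box was read as TATAAA, and the related letters TTAAAA were searched beside it. The Gjb2 window held 2 GC boxes, starting 211 and 126 bases before the start site, and TTAAAA from 29 to 24 bases before it. Of 32851 promoter windows of the same length, 32.7% held a GC box, 16.7% held 2 or more, and 17.7% held TTAAAA. The Gjb6 window held none of the 4 motifs. The Gja1 window held AP-1 letters 19 to 13 bases before the start site, as did 6.75% of all windows at any position, and TTAAAA on the other strand. The Gjb5 window held TATAAA letters on the other strand, starting 243 bases before the start site; 12.4% of windows held them. These matches are descriptions of letters, and none was tested as a binding site.

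The genotype labels were checked on the summed Dsg1a, Dsg1b and Dsg1c levels in CPM (edgeR's depth-adjusted counts, with TMM factors). These were 806 ± 112 CPM in WT, 422 ± 51.5 in HET and 0.548 ± 0.343 in KO (SD, n = 5 each), and HET and KO each differed from WT (two-sided exact permutation test, p = 0.00794, the smallest that 5 against 5 allows). Libraries held 8.98 M to 21 M counts and summed columns 15.3 M to 33.7 M (M, mega). Basal keratinocyte genes (Krt5, Krt14, Krt15, Itgb4, Col17a1) and suprabasal genes (Krt1, Krt10, Krtdap, Dsc1, Lor) were abundant in every column, and so were dermal and muscle genes. The 2 libraries of WT replicate 2 disagreed on sex: Y-linked genes summed to 325 CPM in one and 0.155 in the other, and Xist was 0.264 and 567 CPM. They were therefore not from the same embryo, although they share a title number and a genotype label. This summed replicate mixes libraries of different sex, so values with and without it are given below.

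Gjb2 stood apart from the other 3 genes: it was about as high in HET as in WT and higher in every KO column. In WT replicates 1 to 5 Gjb2 measured 103, 111, 119, 129 and 160 CPM. In HET it measured 104, 138, 100, 151 and 121 CPM, and in KO 276, 402, 186, 317 and 257 CPM. The lowest KO column, replicate 3, was above the highest WT column by 26.7 CPM and above the highest HET column by 35.6 CPM, and WT and HET columns overlapped throughout. The means were 124 ± 21.9 CPM in WT, 123 ± 21.6 in HET and 288 ± 79.6 in KO (SD, n = 5 each). The log2 fold change was 1.21 (SE 0.18) for KO against WT, a fold of 2.31 with a range of 1.80 to 2.97 at 2 SE, and 1.23 (SE 0.18) for KO against HET, a fold of 2.34. These 2 comparisons share the KO columns. Among the 5742 genes averaging at least 1000 counts per column, Gjb2 ranked 33 by log2 fold change for KO against WT and 7 for KO against HET. Among all 17094 genes tested it ranked 202 and 77. In bulk skin, more cells of a type and more RNA per cell cannot be told apart.

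No call is given for the 4 genes in the KO comparisons, which are described without a test. Elsewhere a call asks for a Benjamini-Hochberg adjusted p no higher than 0.1 together with a log2 fold change of at least 1 in size. Of the 4 genes, only Gjb2 had KO columns that overlapped neither WT nor HET. Over all 17094 genes tested, 0.135% were called higher in KO than WT and 1.61% did not overlap in that direction. Against HET the shares were 0.0819% and 0.954%. Since the choice of members used KO levels, nothing is read from this lack of overlap. The Gjb2 log2 fold change for KO against WT was 1.17 (SE 0.20) without WT replicate 2. It was 1.21 and 1.20 with only the first or only the second library of that replicate. For Gjb6, Gjb5 and Gja1 it was 0.47, 0.065 and 0.083 without that replicate, against 0.511, 0.073 and 0.121 with it.

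**Figure D1:**
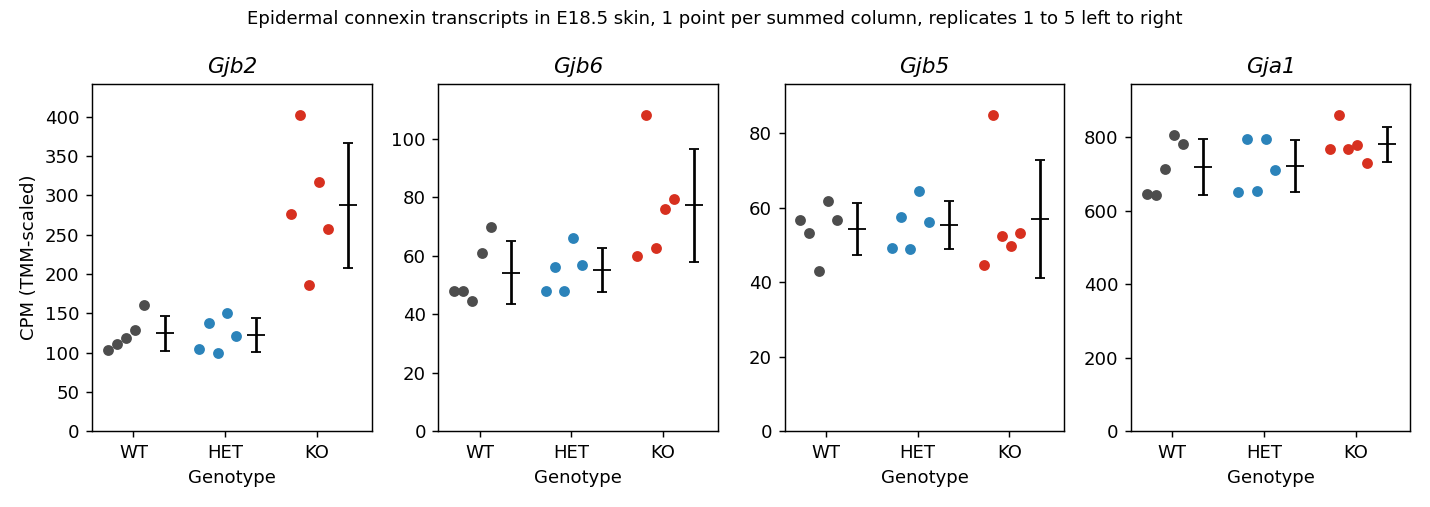
TMM-scaled CPM of Gjb2, Gjb6, Gjb5 and Gja1 on the vertical axis by genotype, 1 point per summed column with replicates 1 to 5 from left to right, and mean with SD beside them. The 5 KO columns of Gjb2 (186 to 402 CPM) lie above all WT and HET columns, and the other 3 genes overlap between genotypes.

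Gjb6 (Cx30), which like Gjb2 is made in differentiated epidermis and in the inner ear, was intermediate. In WT it measured 47.8, 48, 44.4, 60.9 and 69.9 CPM, in HET 48, 56.0, 48, 66.1 and 56.7 CPM, and in KO 59.8, 108, 62.6, 76.1 and 79.4 CPM. In KO, 3 columns were above every WT column, 3 were above every HET column, and the other 2 lay within the range of both groups. Means were 54.2 ± 10.8 CPM in WT, 54.9 ± 7.51 in HET and 77.2 ± 19.2 in KO. The log2 fold change was 0.51 (SE 0.16) for KO against WT and 0.49 (SE 0.16) for KO against HET, folds of 1.43 and 1.41. Without KO replicate 2, the column at 108 CPM, they were 0.36 and 0.34.

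Gjb5 (a connexin of differentiated keratinocytes) did not separate by genotype. Its WT columns measured 56.6, 53.1, 43.0, 61.7 and 56.7 CPM, its HET columns 49.3, 57.4, 49.0, 64.4 and 56.2 CPM, and its KO columns 44.7, 84.8, 52.5, 49.7 and 53.2 CPM. KO replicate 2 alone was above the other genotypes, and the other 4 KO columns lay within the WT range. The log2 fold change was 0.07 (SE 0.15) for KO against WT and 0.05 (SE 0.15) for KO against HET. Without KO replicate 2 the sign turned, to -0.12 and -0.15.

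Gja1 (Cx43), the most broadly made connexin, is found in keratinocytes, fibroblasts, muscle and vessels. It measured 646, 642, 713, 807 and 783 CPM in WT, 650, 796, 655, 796 and 712 CPM in HET, and 769, 860, 768, 778 and 730 CPM in KO. KO columns were above the WT median in all 5 replicates but only replicate 2 was above every WT column. Means were 718 ± 75.9, 722 ± 72.1 and 781 ± 47.9 CPM, and the log2 fold change was 0.12 (SE 0.09) for KO against WT and 0.11 (SE 0.09) for KO against HET.

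All 4 genes had their highest KO level in replicate 2. This column also had the highest summed suprabasal level of all columns (101000 CPM, against 53900 to 77700 in WT) and the lowest skeletal muscle level (8860 CPM, against 11500 to 19900 in WT). Without it the Gjb2 difference from WT was 1.06 (SE 0.16) and that from HET 1.07 (SE 0.16). The part of tissue composition in its levels was not tested.

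HET against WT tests whether loss of 1 copy, which lowered the Dsg1 sum to 52.3% of WT, went with a change of the 4 genes. It compares no KO column, but the KO columns were in the same edgeR fit and entered its SE and p. None was called, against 0 of 17094 genes called (0% by the edgeR quasi-likelihood test with Benjamini-Hochberg adjustment; 270 had an unadjusted p under 0.05), and the adjusted p was 1.0 for each of the 4. Dsg1a and Dsg1b, at log2 fold changes of -0.936 (SE 0.215) and -0.92 (SE 0.144), were not called either. The lack of a call therefore does not show that a gene was unchanged, and the ranges are given instead. Gjb2 was -0.02 (SE 0.18) on the log2 scale, a fold of 0.988 with a range of 0.773 to 1.26 at 2 SE (exact permutation p = 0.913, two-sided). The same ranges were 0.811 to 1.27 for Gjb6 (exact permutation p = 0.833), 0.828 to 1.25 for Gjb5 (exact permutation p = 0.825) and 0.884 to 1.14 for Gja1 (exact permutation p = 0.857). Differences from WT smaller than these ranges could not be seen in this fit with 5 columns per genotype. Fitted without the KO columns, the SE was 0.136 for Gjb2, 0.132 for Gjb6, 0.105 for Gjb5 and 0.098 for Gja1.

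Levels of different connexins were compared per kilobase of the longest principal transcript of GENCODE vM21. Gja1 was highest in every genotype, at 226 ± 23.9 CPM per kb in WT, 227 ± 22.6 in HET and 245 ± 15 in KO. Gjb2 followed at 51.7 ± 9.11, 51.1 ± 8.97 and 120 ± 33.1 CPM per kb. Gjb6 was at 25.8 ± 5.12, 26.1 ± 3.57 and 36.7 ± 9.13 CPM per kb, and Gjb5 at 31.5 ± 4.07, 32.1 ± 3.72 and 33.1 ± 9.25. In WT, Gjb2 columns (42.8 to 66.3 CPM per kb) were above all Gjb5 columns (25 to 35.9) and Gjb6 columns (21.1 to 33.2), whereas Gjb5 and Gjb6 overlapped and their order is not firm. In KO, Gjb2 columns (77.4 to 167) were again above all Gjb6 columns (28.4 to 51.4) and Gjb5 columns (26 to 49.3), and the last 2 overlapped. Gja1 depends on the transcript: over all its exons it was 70.0 CPM per kb in WT and 76.1 in KO, and Gjb2, which has the same length either way, was then above it in KO.

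Summed over the 16 genes, which are not every connexin gene of skin, transcript levels were 374 ± 38.9 CPM per kb in WT, 376 ± 43.5 in HET and 466 ± 57.6 in KO, and without Gjb2 323 ± 31.2, 325 ± 35.3 and 347 ± 27.9. Gjb2 ranged from 12.5 to 15.8% of this sum in WT, 12.5 to 15.3% in HET and 18.6 to 29.7% in KO. Gja1 ranged from 58.7 to 62.6% in WT and from 47.9 to 58.1% in KO, so the KO sum held relatively more Gjb2 and less Gja1. The mean level of Gja1 itself was not lower in KO (245 CPM per kb, against 226 in WT). These sums and shares depend on the transcript length used, for Gja1 above all. The ratio of Gjb2 to its neighbour Gjb6, per kb, was 2.02 ± 0.196 in WT, 1.95 ± 0.13 in HET and 3.27 ± 0.583 in KO, with KO columns at 2.6 to 4.03 and no WT column above 2.35. The shares and this ratio reuse the KO levels by which Gjb2 was chosen, so nothing is read from their separation. How often other genes separate on these scales is not given here.

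**Figure D2:**
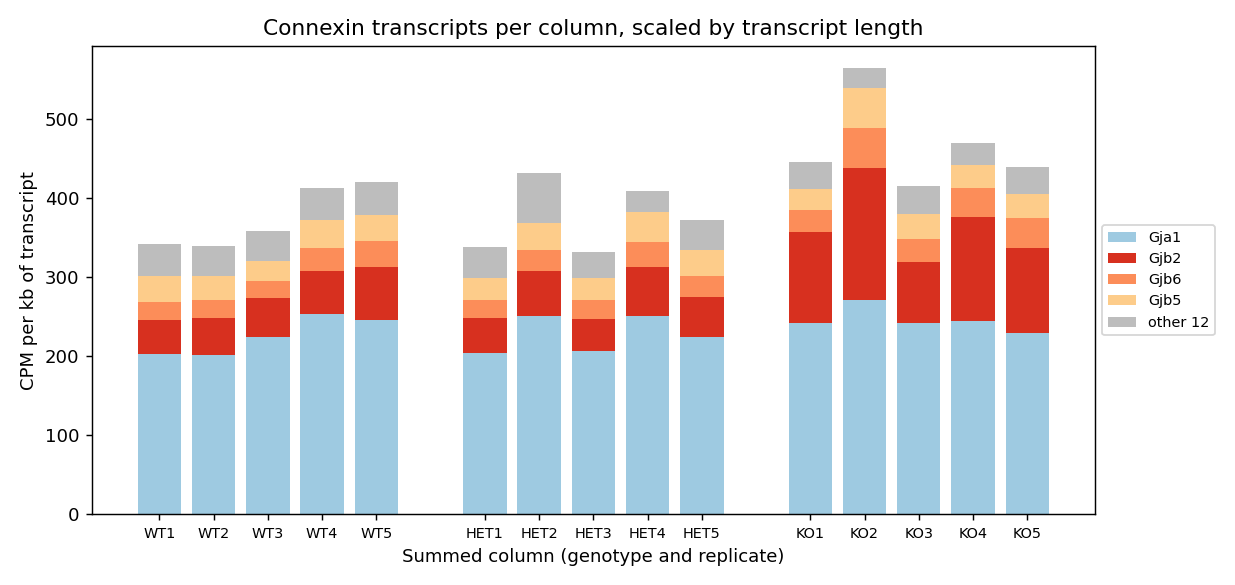
Stacked bars of CPM per kb of transcript (vertical axis) for connexin genes in each of the 15 summed columns, with 12 other genes pooled in grey. The Gjb2 layer (red) is thicker in all 5 KO columns, where it is 18.6 to 29.7% of the bar, and Gja1 (light blue) is the largest layer in every column. Both depend on the transcript length used for Gja1.

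Skin cell makeup was read from summed marker levels beside the members. Basal keratinocyte lists summed to 6150 to 6830 CPM in WT, 5530 to 7600 in HET and 6090 to 7530 in KO, and suprabasal lists to 53900 to 77700, 54700 to 72500 and 67900 to 101000 CPM. Activated keratinocyte genes (Krt6a, Krt6b, Krt16, Krt17, Sprr1b, Sprr2d, S100a8, S100a9) summed to 678 to 916 CPM in WT, 625 to 1170 in HET and 828 to 1570 in KO. Krt16, a keratin of stressed epidermis, averaged 24.9 CPM in WT and 285 in KO, and Krt6a 1.51 and 13.3 CPM. Krt17, which made up most of the summed level, averaged 740 CPM in WT and 687 in KO (log2 fold change -0.11, SE 0.14). Of the 8 genes 7 were higher in KO than WT, beside 48.6% of all genes tested. By edgeR 2 were called higher, beside 0.135% of all genes tested. The list was chosen with earlier results of these data known, so nothing is read from these counts. Dermal fibroblast genes spanned 22400 to 36600, 19900 to 32000 and 14700 to 29500 CPM. Hair follicle genes spanned 143 to 296 CPM in WT and 166 to 372 in KO, endothelial genes 284 to 359 and 266 to 488 CPM, and neutrophil genes 5.73 to 7.94 and 4.57 to 21.5 CPM, with Ly6g, their defining marker, averaging 0.0402 and 0.0429 CPM. Skeletal muscle genes spanned 12900 to 18700 CPM in HET and 8860 to 17300 in KO. Erythroid genes spanned 1530 to 4690 CPM in WT and 2860 to 8310 in KO, adipocyte genes 312 to 978 and 462 to 4820 CPM, melanocyte genes 197 to 244 and 190 to 312 CPM, and Schwann cell genes 38.7 to 42.5 and 22 to 45.4 CPM. WT and KO columns overlapped in every list, though 4 of 5 KO columns held more activated keratinocyte RNA than any WT column. The part of these shifts in the connexin levels was not tested.

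Set against the basal list, Gjb2 stood at 15.1 to 23.3 CPM per 1000 CPM of the list in WT, 17.4 to 21.3 in HET and 28.6 to 53.4 in KO. Against the suprabasal list it stood at 1.67 to 2.31, 1.79 to 2.27 and 2.6 to 4.24. KO did not overlap WT or HET on either scale, which reuses the KO levels by which Gjb2 was chosen. The share of all genes that did not overlap on these scales is not given here. Gjb6 on the suprabasal scale averaged 0.836, 0.872 and 0.992 and Gjb5 0.845, 0.877 and 0.728, with overlapping genotypes. Gja1 on that scale averaged 11.1, 11.5 and 10.2. Its KO columns (8.56 to 10.7) overlapped WT (10.4 to 12) but lay below every HET column (11 to 12). With the basal list as a covariate in the edgeR fit the Gjb2 difference from WT was 1.15 (SE 0.15), and with the dermal list 1.18 (SE 0.20). The suprabasal and activated lists were not used as covariates, so their part in the difference was not tested.

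Over the 15 columns, which share libraries, depth and genotype, Gjb2 (log2 of CPM plus 1) varied with the suprabasal list (r = 0.80, and 0.77 once genotype means were removed) and with the activated list (r = 0.81 and 0.56), and against the muscle list (r = -0.46 and -0.76). Gja1 varied with the suprabasal list at r = 0.91 and 0.90, Gjb6 at 0.83 and 0.73, and Gjb5 at 0.58 and 0.68. Gjb6 and the activated list gave 0.53 and 0.10, and Gjb5 and that list 0.05 and 0.01. These r values are descriptions over columns that are not independent of the genotype difference.

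None of the other connexins reported here was called. Of these 12, 8 passed the filter and 4 (Gja6, Gja10, Gjd2, Gje1) did not. The edgeR test called 0 of the 8 in each comparison, as did DESeq2 and limma-voom, beside 0.322% of all genes called by edgeR in either direction for KO against WT, 0.181% for KO against HET and 0% for HET against WT. Of all 17094 genes, DESeq2 called 99 higher and 91 lower for KO against WT, and 42 and 84 for KO against HET. The limma-voom calls were 24 and 76, and 9 and 32. Neither method called a gene for HET against WT. At an unadjusted p under 0.05 there were 0, 1 and 0 of them, beside 19.3%, 16.0% and 1.58% of all genes. At an adjusted p of at most 0.1 and any fold there were 0 in each, beside 1.15%, 0.333% and 0%. Columns of the 8 genes overlapped in each comparison. Over all genes 3.37% (1.76% lower in KO) did not overlap between KO and WT, 2.25% (1.30% lower in KO) between KO and HET and 0.374% between HET and WT. For KO against WT 1 was higher and 7 lower, with a median log2 fold change of -0.29 against -0.01 over all genes tested.

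Values of the 8 follow. Gja3, a lens connexin and the neighbour of Gjb2, was -0.48 (SE 0.25, edgeR adjusted p = 0.293) for KO against WT. The vessel connexins Gja4 and Gja5 were -0.34 (SE 0.38) and -0.25 (SE 0.16), and Gjc1 was -0.21 (SE 0.13). Gjc3, a glial connexin, was -0.33 (SE 0.19), Gjd4 -0.26 (SE 0.25) and Gjb1, a liver and nerve connexin, 0.10 (SE 0.23). Gjd3 was -0.96 (SE 0.58) against WT and -1.49 (SE 0.57, edgeR adjusted p = 0.234) against HET. The second value rests on HET replicate 2 (7.78 CPM, against 0.911 to 1.53 in the other HET columns), and without that column it was -0.43 (SE 0.35, edgeR adjusted p = 0.602). Among the other neighbours, Cryl1 was -0.35 (SE 0.12, edgeR adjusted p = 0.139) and Ift88 0.01 (SE 0.10), while next to Gja1 Tbc1d32, Msl3l2, Hsf2 and Serinc1 were 0.18, -0.42, -0.12 and 0.01; none was called. Csmd2, beyond Gjb5, was not tested.

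**Figure D3:**
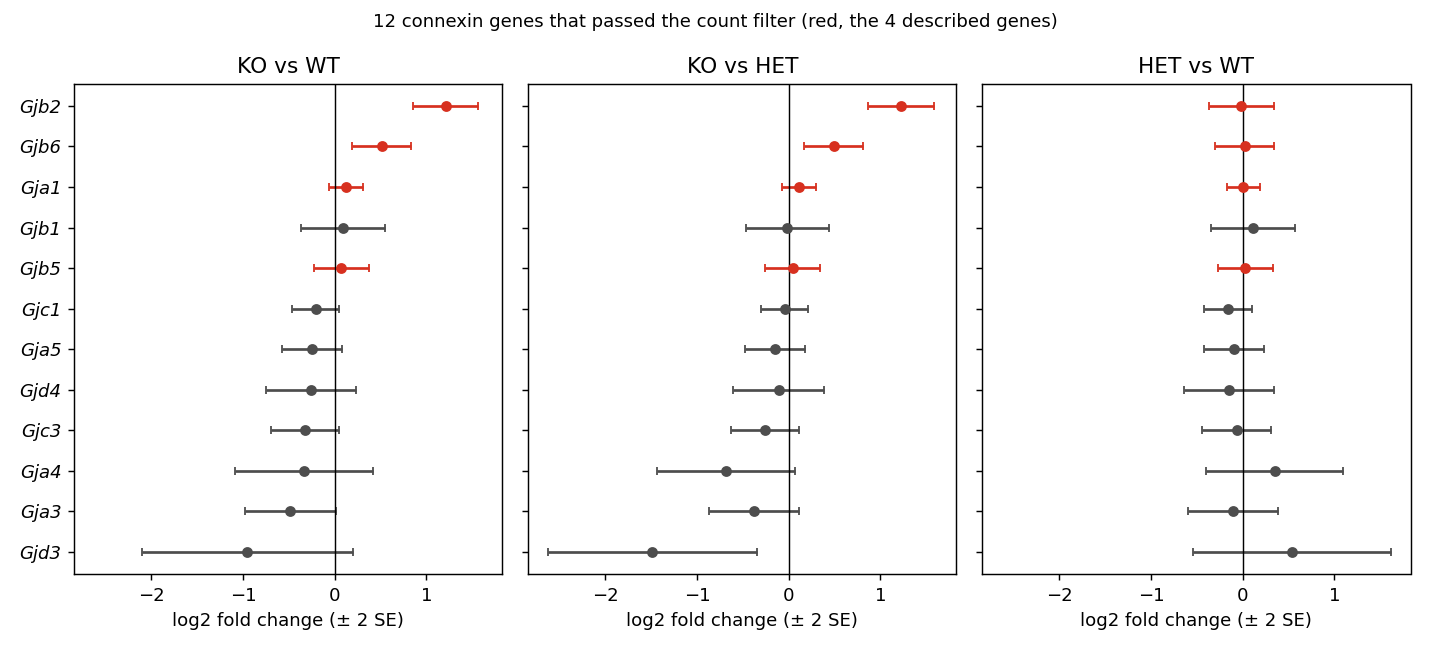
Log2 fold change with bars of 2 SE (horizontal axis) for the 12 connexin genes reported here that passed the filter, in 3 comparisons, with the 4 described genes in red. Gjb2 is the only gene above 1, in the 2 KO comparisons, Gjd3 lies at -1.49 for KO against HET (-0.43 without HET replicate 2), and every HET against WT bar crosses 0.

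Genes whose proteins bind, anchor or modify connexins were read from a list of 15, of which 13 passed the filter and Panx2 and Panx3 did not. None was called by edgeR, DESeq2 or limma-voom in any comparison, beside 0.322%, 0.181% and 0% of all genes called by edgeR for KO against WT, KO against HET and HET against WT. The calls of DESeq2 and limma-voom over all genes are given above with the other connexins. At an unadjusted edgeR p under 0.05 there were 3 for KO against WT, 4 for KO against HET and 0 for HET against WT, beside 19.3%, 16.0% and 1.58% of all genes. Of the 13, 8 were higher and 5 lower for KO against WT, with a median log2 fold change of 0.04. Tjp1, a scaffold protein of cell junctions to which gap junction plaques attach, was 0.30 (SE 0.14, edgeR adjusted p = 0.256). Cnst, consortin, which helps carry connexins to the membrane, was -0.26 (SE 0.09, edgeR adjusted p = 0.156). Dbn1, drebrin, an actin-binding partner of Cx43, was -0.23 (SE 0.11), and the kinase gene Csnk1d 0.17 (SE 0.08). Panx1, the main pannexin of skin, was 0.00 (SE 0.11).

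By Pearson r over the 15 columns among the 15059 genes averaging at least 20 counts, the genes most like Gjb2 were Homer2 (0.971), which makes a scaffold protein, and Dusp16 (0.957), a phosphatase of MAP kinases. Further genes among the closest 10 were the carboxypeptidase gene Cpm (0.947), the secreted phospholipase gene Pla2g2d (0.945), the kinase gene Map2k4 (0.944) and the cholesterol sulfotransferase gene Sult2b1 (0.942). Mfsd6 (0.942), the potassium channel gene Kcnk6 (0.934) and the histone methyltransferase gene Suv420h1 (0.933) were also among them. Homer2 went from 26.9 ± 4.94 CPM in WT to 47.5 ± 9.9 in KO, and Cpm from 84.9 ± 14.9 to 164 ± 57.8. Since r was taken over columns that hold the KO difference of Gjb2, a KO rise is partly built into this choice. With genotype means removed, r for the genes named so far ran from 0.696 (Suv420h1) to 0.936 (Map2k4). With genotype means removed the closest were Il1rn (0.969), an interleukin receptor antagonist, Itsn2 (0.955), Bmp2k (0.953), Nipal4 (0.952), an ichthyosis gene, and Fndc9 (0.938).

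The genes most like Gjb6 were Slc15a1 (0.975), Hopx (0.973), Sptlc3 (0.969), Elovl4 (0.962) and Spink5 (0.959), of which Elovl4 and Sptlc3 act in skin lipid synthesis and Spink5 makes a protease inhibitor of the upper epidermis. Gjb5 was closest to Arl4d (0.914), Hsd17b2 (0.912), Itm2b (0.910), Nipal1 (0.906) and Capns2 (0.902). Gja1 was closest to Zfp185 (0.925), Srcin1 (0.925), Map7 (0.924), Cep170b (0.922) and Klf4 (0.921), Klf4 being a transcription factor of keratinocyte differentiation. Gjb2 gave r = 0.88 with Gjb6 and 0.83 once genotype means were removed, 0.69 and 0.74 with Gja1, and 0.31 and 0.59 with Gjb5. With Krt16 it gave 0.91 and 0.61, while Gjb6 gave 0.64 and 0.13.

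**Figure D4:**
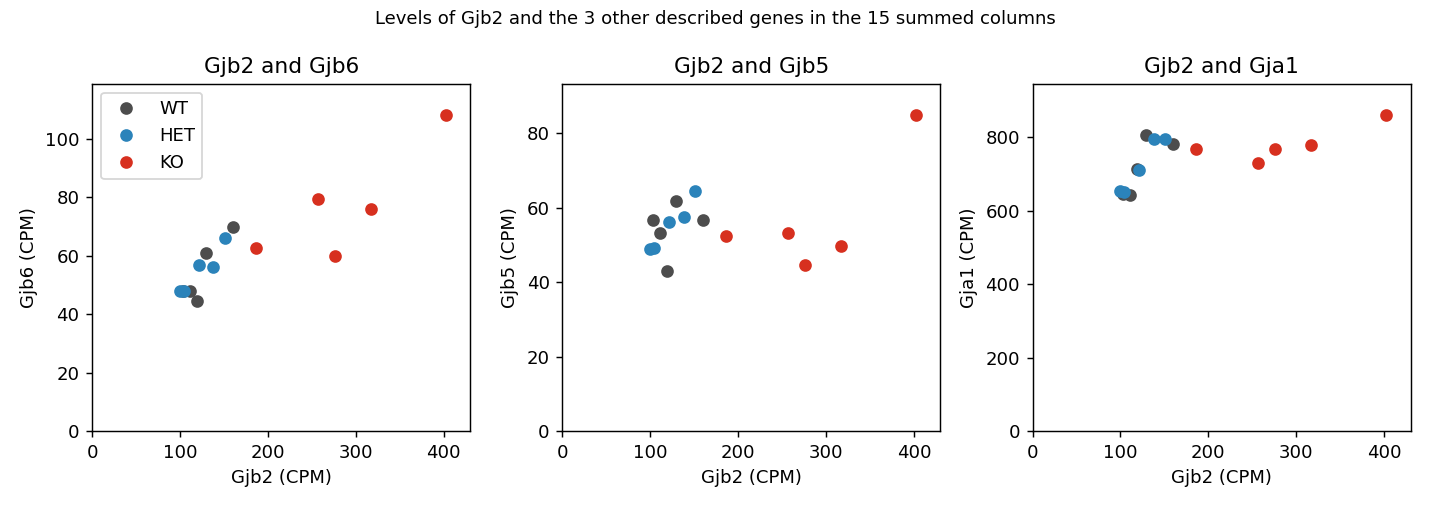
CPM of Gjb2 (horizontal axis) against CPM of Gjb6, Gjb5 and Gja1 (vertical axes), 1 point per summed column, coloured by genotype. Over 4 KO columns Gjb5 stays at 44.7 to 53.2 CPM while Gjb2 spans 186 to 317 CPM, and KO replicate 2 is highest in each panel.

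Paired libraries of 1 title number agreed closely on the members. Over 8 numbers, leaving out WT replicate 2, the ratio of the second library to the first was 0.988 to 1.09 for Gjb2, 0.953 to 1.14 for Gjb6, 0.941 to 1.05 for Gjb5 and 1.04 to 1.08 for Gja1. In WT replicate 2 it was 1.32 for Gjb5 (45 and 59.3 CPM). Gjb2 overlapped between sexes in KO, where the 3 columns with Y-linked counts measured 186 to 402 CPM and the 2 without 257 to 276. In HET they overlapped too (104 to 151 and 100 to 138 CPM). In WT without replicate 2 they did not: the 1 column with Y-linked counts measured 160 CPM and the 3 without 103 to 129. With the Y-linked sum as a covariate the Gjb2 difference of KO from WT was 1.17 (SE 0.18). Of 50-base words in the transcripts, none of 2357 in Gjb2 was found in another gene, nor any in Gjb5 or Gjb6, and 12 of 10445 in Gja1 were.

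**Figure D5:**
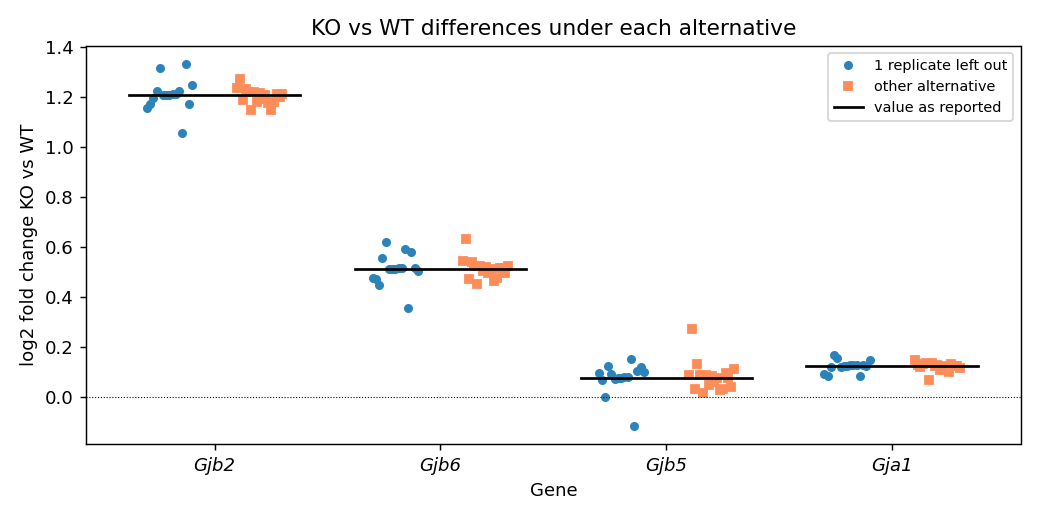
Log2 fold change KO against WT of the 4 genes (vertical axis) under each processing alternative, with fits that leave out 1 replicate as circles, other alternatives as squares and the reported value as a line. Gjb2 stays between 1.06 and 1.33, and Gjb5 crosses 0.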

How the data were processed

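Dorsal skin RNA of E18.5 embryos was sequenced as poly(A), strand-preserving libraries. The authors deposited a table of raw counts, whole numbers per gene symbol for 24 libraries; the submitters' processing notes list STAR, HTSeq and the build hg19, although the gene symbols are mouse. The annotation and strand setting are not given in the sources used here. Libraries with the same title number and genotype were summed (15 columns); what the number stands for is not stated, so p-values measure the spread between these columns. Replicates 1 to 5 are named by ascending title number. Genes were kept with filterByExpr (17094; 18384 of 54087 had no count), scaled by TMM and tested with edgeR 4.0.16 in R 4.3.3 (quasi-likelihood, robust, 3 genotypes in 1 fit, Benjamini-Hochberg). A call needed an adjusted p no higher than 0.1 together with a log2 fold change of at least 1 in size. Fits were tested on simulated data. Single values were compared with the exact permutation test over 252 arrangements (scipy 1.17.1). Depth was 15.3 M to 33.7 M counts (M, mega) per column. The members and lists were chosen with earlier results of these data known. Named genes were the members, the other connexins, 2 neighbours on each side, and the genes most correlated with each member. Alternatives were DESeq2 1.42.0, limma-voom 3.58.1, other scalings, filters, series, covariates and left-out replicates. Some connexins, neighbours and correlated genes are not reported here and were left out of the lists, but stayed in the fit across all genes. Of the neighbours, B020004C17Rik and CK137956 were not analysed here. Sequences were taken from RefSeq GRCm38.p6.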

Additional observations from a re-analysis of the deposited data

Results flagged for a closer look

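In 36 groups of 5 columns (12 connexin genes in 3 genotypes), 3 had 1 column whose gap to the nearest other exceeded 0.71 of the group's range. For independent groups of normally distributed values chance alone gives about 1 in 20, or 1.8. These groups were read in CPM without logs, and genes share their columns, so 1.8 is only a rough guide. Gjb5 in KO replicate 2 measured 84.8 CPM against 53.2 for the next column, a gap of 0.788 of the range. Gja4 in HET replicate 2 measured 43.4 CPM against 13.0 (0.833), and Gjd3 in the same column 7.78 CPM against 1.53 (0.91).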

How the results depend on the processing

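The KO differences of the 4 genes moved by less than the replicate SD under all 32 alternatives: Gjb2 against WT 1.06 to 1.33 and against HET 1.07 to 1.35, Gjb6 0.36 to 0.63 and 0.34 to 0.58, Gjb5 -0.12 to 0.27 and -0.15 to 0.22, Gja1 0.07 to 0.17 and 0.07 to 0.17. HET against WT lay near 0 and changed sign in some fits, with none of the 4 called in any. For Gjb2 it was 0.012 with the libraries of WT replicate 2 kept apart and 0.045 with the basal keratinocyte covariate, and -0.102 to 0.088 with 1 replicate left out. For Gjb5 it was -0.013 with the Y-linked covariate and -0.006 with only the second library of WT replicate 2 (chosen after seeing the data), and -0.046 to 0.078 with 1 replicate left out. For Gjb6 it was -0.016 with title series 2 alone and -0.027 with the Y-linked covariate, and -0.057 to 0.126 with 1 replicate left out. For Gja1 it was -0.044 with title series 1 alone, -0.013 with 24 separate libraries, -0.004 with total count scaling and -0.0 (rounded) with the Y-linked covariate, and -0.033 to 0.053 with 1 replicate left out. The cause was not tested. Among the other connexins 1 gene, Gjd3, was called for KO against HET when the 24 libraries were kept separate (edgeR adjusted p = 0.0259), and other fits called 0. That fit counts the 2 libraries of 1 title number as independent, so its p-value does not measure the spread between replicates. It also enters the outlying HET replicate 2 as 2 samples. Over all genes, calls for KO against WT moved more, against 23 higher and 32 lower as reported: 1 and 2 with title series 1 alone, 126 and 95 with 24 separate libraries, and 113 and 127 without KO replicate 5.
No paired analysis was possible because the title numbers are not shared between genotypes and the replicate numbers are only names.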
